A study of Homo sapiens with 4 samples.

Results

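Aminoacyl-tRNA synthetases were followed through an RNA immunoprecipitation with sequencing (RIP-seq) of ALKBH5 in cells of NOMO-1, an established human line from acute myeloid leukaemia. Members were taken by gene symbol: of 36 listed symbols, 35 were in the deposited table of 26830 genes, 20 for cytosolic and 15 for mitochondrial enzymes. VARS2 was not analysed here. All libraries came from cells that carried a lentiviral ALKBH5 coding sequence with a 3xFlag tag (ALKBH5 OE); the cells were puromycin-selected and GFP-sorted before UV crosslinking. The Flag-IP group held 2 libraries, numbered 1 and 3, of RNA pulled down with an anti-Flag antibody. The input group held 2 libraries with the same numbers, made from the same overexpressing cells without an antibody. Every value therefore belongs to cells with extra, tagged ALKBH5, and no pull-down from untagged cells is analysed here. Whether the replicates were separate cultures is not in the labels, and the p-values reflect only how far these libraries spread, which may be technical variation.

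Aminoacyl-tRNA synthetases join each amino acid to its transfer RNA and so set the reading of the genetic code. Cytosolic and mitochondrial translation mostly use separate nuclear genes, the mitochondrial ones carrying a final 2 in their symbol; GARS and KARS also supply the mitochondrial enzyme. A number of cytosolic synthetases sit with scaffold proteins in the multisynthetase complex, and several cytosolic synthetase genes are targets of ATF4, the transcription factor of the amino acid response. ALKBH5 is a nuclear enzyme that removes N6-methyladenosine (m6A) from RNA, and a RIP-seq level compares the RNA recovered with the protein to the RNA present.

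Values were in TPM, the length-scaled share of transcripts in a library, which the authors deposited without read depths, so a level listed at 0 is not a measured absence. Structural RNAs held 92.5% and 93.6% of TPM in the Flag-IP libraries, against 96.8% and 96.3% in the inputs, and the number of genes at 1 TPM or more was 7970 and 7249 in Flag-IP and 4076 and 4543 in input. Most genes were higher in Flag-IP as deposited, the median tested gene having a ratio of 2.38 between the mean TPM of Flag-IP and of input. Among 7 myeloid markers, SPI1 had 8.54 and 9.68 TPM in Flag-IP and 5.05 and 6.81 TPM in input, and ELANE, CTSG, CEBPA and CD33 were also above 2 TPM in every library. MPO stayed at or below 0.13 TPM and LYZ at or below 1.63 TPM, so these 2 defining markers were low or nearly absent. Of 7 markers of other cells, CD3E, MS4A1, HBA1 and EPCAM were listed at 0 throughout and none exceeded 0.20 TPM.

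As a family, the synthetases were recovered with ALKBH5 about as much as the typical gene, with a wide range between members. The 35 genes summed to 318.61 and 261.33 TPM in Flag-IP, against 115.27 and 132 TPM in input, so both Flag-IP sums lay above both input sums. As a share of TPM outside structural RNAs they took 0.425% and 0.407% in Flag-IP, against 0.360% and 0.361% in input. Both Flag-IP libraries exceeded both inputs for 34 members; among all tested genes 93.1% did so. The exception was WARS2, the mitochondrial tryptophan enzyme, with 0.36 and 0.41 TPM in Flag-IP and 0.38 and 0.33 TPM in input. The members' median Flag-IP over input ratio was 2.38, from 1.08 for WARS2 to 4.29 for RARS2, beside the median of 2.38 over all tested genes.

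**Figure D1:**
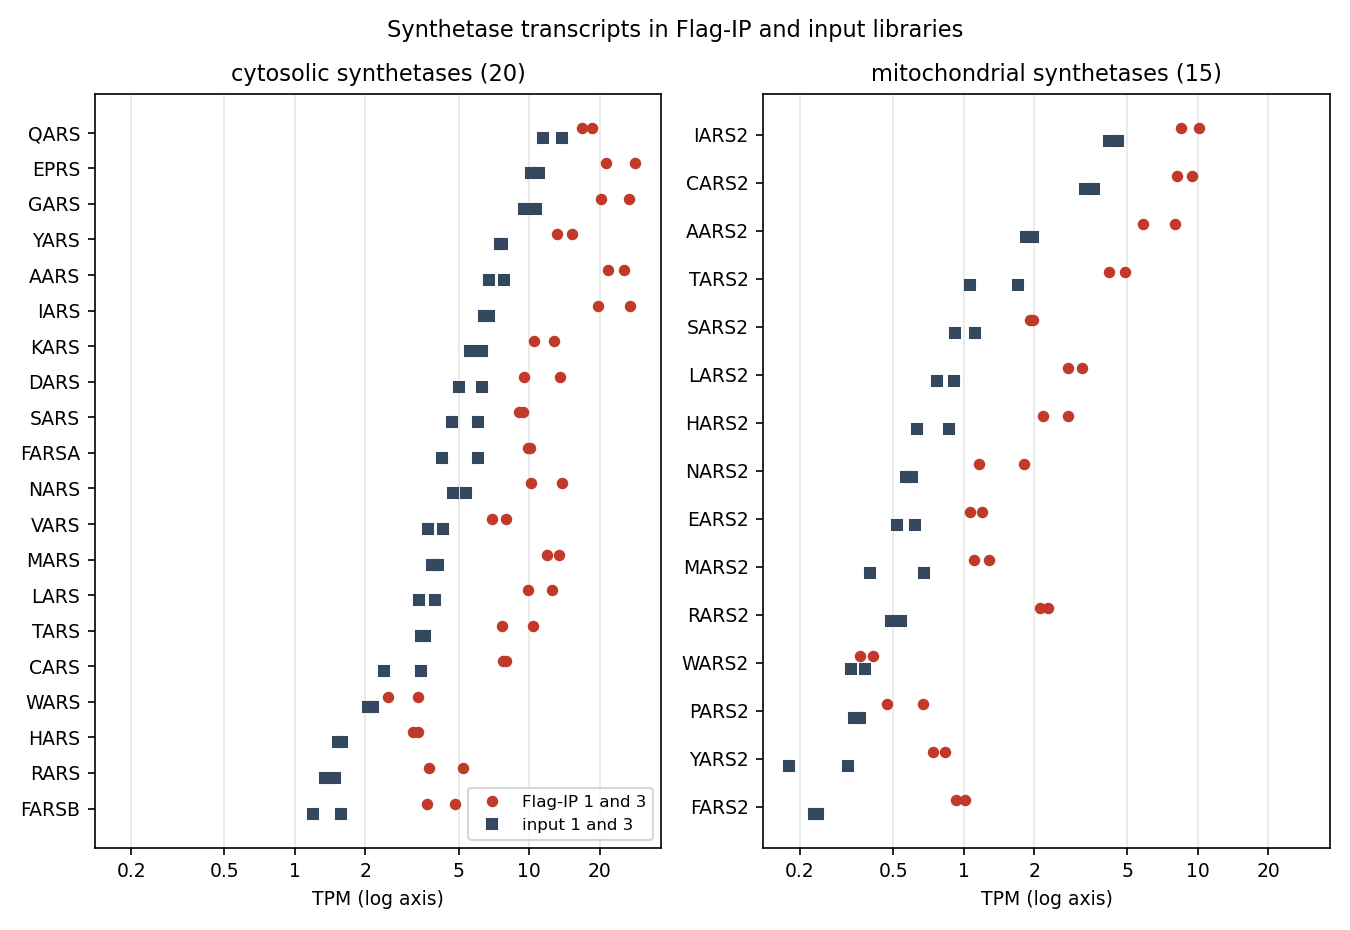
TPM (log axis) of each of the 35 synthetases in the 2 Flag-IP libraries (circles) and the 2 input libraries (squares), cytosolic on the left and mitochondrial on the right, ordered by input mean. The Flag-IP points lie to the right of the input points for every gene but WARS2, and the mitochondrial genes sit at lower TPM.

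Testing used limma, for genes whose mean over the libraries reached 1 TPM, on log2(TPM + 1), a scale that understates the change of low genes, with p-values adjusted over all 6487 genes. All 20 cytosolic members and 9 mitochondrial members were tested. The untested ones were EARS2, FARS2, MARS2, PARS2, WARS2 and YARS2. HARS2, LARS2, NARS2 and RARS2 had input means below 1 TPM and passed only through their Flag-IP level, so counts over the tested mitochondrial members support nothing. On the scale as deposited, 28 of the 29 tested members were higher in Flag-IP and none was lower, beside 86.6% of all tested genes higher and 0.74% lower; the member that did not pass was WARS. With each library divided by its median ratio, so that a difference is read against the typical gene, 6 of 29 were higher (20.7%) and 3 were lower (10.3%), beside 22.3% and 18.6% of all tested genes. Both shares lay below the background, so they are no result about the family; the remaining 20 did not pass. The higher members were IARS, AARS and MARS among the cytosolic genes and AARS2, RARS2 and LARS2 among the mitochondrial ones, and the lower members were QARS, WARS and SARS. With no filter on low values and all 26830 genes tested, none of these 9 calls passed in limma, with adjusted p-values from 0.0803 for WARS to 0.245 for SARS.

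**Figure D2:**
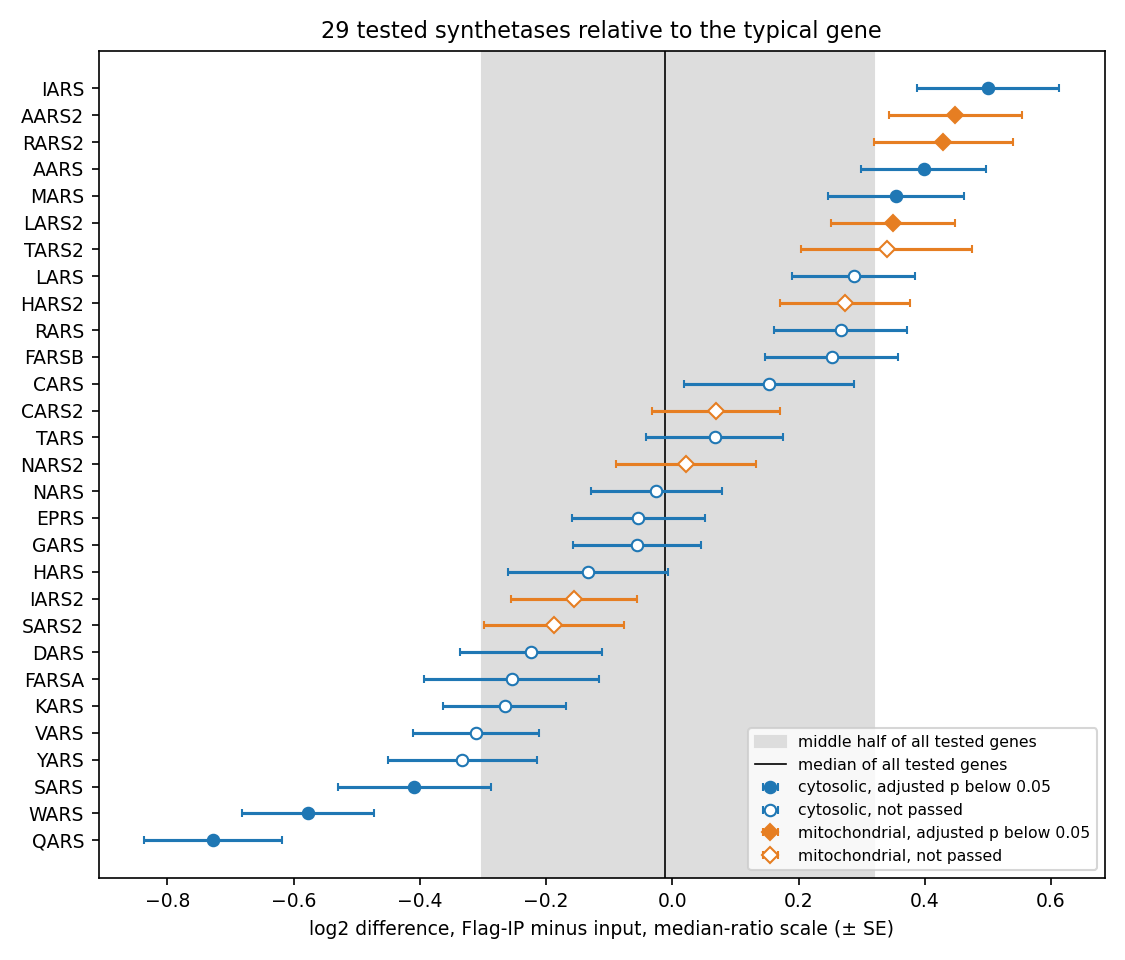
log2 difference, Flag-IP minus input, on the median-ratio scale with its standard error for the 29 tested synthetases, cytosolic (circles) and mitochondrial (diamonds); filled symbols had an adjusted p below 0.05 and the grey band spans the quartiles of all tested genes. QARS lies lowest at -0.73 and IARS highest at 0.50, and most members fall within the band.

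QARS, the glutamine enzyme, was the most abundant synthetase in input and among the least recovered with ALKBH5. It had 18.46 and 16.85 TPM in Flag-IP libraries, against 11.42 and 13.87 TPM in inputs. The groups did not overlap, but the gap was small beside that of the typical gene, and the ratio of the means was 1.40 (17.7 ± 1.14 in Flag-IP and 12.6 ± 1.73 TPM in input, SD, n = 2 each). Of all tested genes, 90.0% had a larger ratio. Relative to the typical gene its difference was -0.73 ± 0.11 (log2, SE; limma adjusted p = 0.0045), while on the deposited scale it was higher in Flag-IP. With each library left out in turn the difference ran from -0.78 to -0.60 and the call held, with adjusted p-values from 0.014 to 0.025.

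WARS and SARS were the other cytosolic members called lower than the typical gene. WARS, the tryptophan enzyme and an interferon-inducible gene, had 3.34 and 2.49 TPM in Flag-IP, against 2.06 and 2.16 TPM in input. The groups were apart by less than the spread between the Flag-IP libraries, at a ratio of 1.38 (2.92 ± 0.601 in Flag-IP and 2.11 ± 0.0707 TPM in input, SD, n = 2 each). Its median-ratio difference was -0.58 ± 0.10 (adjusted p = 0.0083) and it did not pass on the deposited scale; without Flag-IP 3 the call was lost, at -0.51 (-0.505, adjusted p = 0.0501). SARS, the serine enzyme, had 9.39 and 9.06 TPM in Flag-IP, against 4.67 and 6.04 TPM in input. Its Flag-IP values were close to each other and above both inputs, at a ratio of 1.72. The difference from the typical gene was -0.41 ± 0.12 (adjusted p = 0.040), although SARS was higher on the deposited scale. That call rested on all 4 libraries: leaving out any one gave adjusted p-values from 0.0505 to 0.212, with differences from -0.50 to -0.25. It was also lost under quantile scaling (-0.29, adjusted p = 0.0977), after rescaling without structural RNAs (-0.20, adjusted p = 0.219) and after removal of a trend with transcript length (-0.22, adjusted p = 0.204).

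The cytosolic members furthest above the typical gene were IARS, AARS and MARS. IARS, the isoleucine enzyme, had 26.88 and 19.68 TPM in Flag-IP, against 6.44 and 6.72 TPM in input. The inputs agreed closely and both Flag-IP values were far above them, at a ratio of 3.54 (23.3 ± 5.09 in Flag-IP and 6.58 ± 0.198 TPM in input, SD, n = 2 each). Relative to the typical gene IARS was 0.50 ± 0.11 higher (adjusted p = 0.016). The call was lost when input 3 (0.41, adjusted p = 0.101) or Flag-IP 1 (0.47, adjusted p = 0.0525) was left out, and after removal of a trend with transcript length (0.33, adjusted p = 0.0704). IARS spans chr9:92210207-92293756 on the minus strand of GRCh38 and hosts SNORA84 and MIR3651 on its own strand, which the table lists apart from it.

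AARS, the alanine enzyme, had 25.39 and 21.68 TPM in Flag-IP, against 6.71 and 7.84 TPM in input. The 2 groups lay well apart, and the ratio was 3.24 (23.5 ± 2.62 in Flag-IP and 7.28 ± 0.799 TPM in input, SD, n = 2 each). Its median-ratio difference was 0.40 ± 0.10 (adjusted p = 0.023). That call failed when input 1 (0.38, adjusted p = 0.117), input 3 (0.39, adjusted p = 0.113) or Flag-IP 3 (0.38, adjusted p = 0.0631) was left out. MARS, the methionine enzyme that also charges the initiator tRNA, had 13.39 and 11.91 TPM in Flag-IP, against 3.86 and 4.09 TPM in input. The replicates of each group were close and the ratio was 3.18, yet the median-ratio difference of 0.35 ± 0.11 (adjusted p = 0.043) was lost whichever library was left out, with adjusted p-values from 0.0572 to 0.211, and after removal of the length trend (0.35, adjusted p = 0.0536). MARS lies across DDIT3 and ARHGAP9 on the opposite strand; the library kit was stranded, but no source used here gives the strand setting of the quantification.

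EPRS and GARS, the next most abundant cytosolic members in input, sat at the typical gene. EPRS makes a fused enzyme for glutamic acid and proline and is part of the multisynthetase complex; it had 28.42 and 21.22 TPM in Flag-IP, against 10.22 and 11.07 TPM in input. GARS, the glycine enzyme, had 26.71 and 20.17 TPM in Flag-IP, against 9.51 and 10.67 TPM in input. For both genes the Flag-IP values lay well above the inputs, at ratios of 2.33 and 2.32, but the differences on the median-ratio scale were -0.05 ± 0.11 and -0.06 ± 0.10 and did not pass. Of all synthetases, only AARS had a Flag-IP mean between those of these genes.

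On either side of the threshold the values were close. VARS, the valine enzyme, just missed it with 7.95 and 6.92 TPM in Flag-IP, against 3.71 and 4.28 TPM in input (-0.31, adjusted p = 0.051). LARS, the leucine enzyme, had 12.54 and 9.87 TPM in Flag-IP, against 3.40 and 3.98 TPM in input (0.29, adjusted p = 0.059). Both groups were again apart in each gene, and their differences were close in size to that of MARS, the smallest cytosolic one that passed. The other cytosolic members that did not pass, CARS, DARS, FARSA, FARSB, HARS, KARS, NARS, RARS, TARS and YARS, had median-ratio differences from -0.33 for YARS to 0.27 for RARS. FARSA and FARSB encode the 2 subunits of the phenylalanine enzyme, and their ratios were 1.93 and 3.08.

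The ratios overlapped between genes inside and outside the multisynthetase complex and between enzyme classes. The 8 complex members EPRS, LARS, IARS, MARS, QARS, RARS, KARS and DARS had ratios from 1.40 to 3.54 with a median of 2.68, and 2 were higher (IARS and MARS) and 1 lower (QARS) than the typical gene. The other 12 cytosolic genes had ratios from 1.38 to 3.24 with a median of 2.21, and 1 was higher (AARS) and 2 lower (WARS and SARS). Of all tested genes 22.3% were called higher and 18.6% lower. The complex thus held both the highest and one of the lowest cytosolic ratios. Class I and class II enzymes differ in the fold of the catalytic domain; the cytosolic medians were 2.51 for the 10 genes with a class I part and 2.21 for the 10 of class II. No test was made between these groups, since their members are not replicates.

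Mitochondrial synthetase transcripts were rarer and had higher ratios at the top of their range. Their median was 1.945 TPM in Flag-IP and 0.585 TPM in input, against 11.355 and 5.1 TPM for the cytosolic genes. The median cytosolic level was 6.58 and 5.01 times the mitochondrial one in the Flag-IP libraries and 7.20 and 8.39 times in the inputs, so the quotient was lower in Flag-IP. Over all 15 genes the median Flag-IP over input ratio was 2.55, against 2.33 for the 20 cytosolic genes. The ratio reached 3 for 7 mitochondrial and 6 cytosolic genes, and was under 2 for 4 mitochondrial and 7 cytosolic genes. Of 6476 tested genes with a ratio, 2079 reached 3 and 2242 were under 2. Those genes all passed the 1 TPM filter, whereas the mitochondrial counts include untested genes. Of the mitochondrial genes reaching 3, FARS2 and YARS2 were untested, and HARS2, LARS2 and RARS2 passed only through Flag-IP. Of those under 2, EARS2, PARS2 and WARS2 were untested. The mitochondrial counts and this background are therefore unlike sets, and no shift is read from them. No difference between compartments is read from a median over the tested mitochondrial genes, since 4 of those 9 passed the filter only through Flag-IP. Without a filter, the median difference was -0.09 (log2) for the cytosolic and 0.034 for the mitochondrial members, a gap of -0.13. The reference there was the median of all 26830 genes, most of them below 1 TPM, and not that of the typical tested gene.

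AARS2 was among the 3 most abundant mitochondrial synthetases and had the highest median-ratio difference of those tested. On the opposite strand it overlaps TMEM151B by 7853 bases and AL353588.1 by 13673, and no source used here gives the strand setting. This alanine enzyme had 7.96 and 5.85 TPM in Flag-IP, against 1.84 and 1.98 TPM in input. The Flag-IP values were clearly above the inputs, at a ratio of 3.62 (6.91 ± 1.49 in Flag-IP and 1.91 ± 0.0990 TPM in input, SD, n = 2 each). Relative to the typical gene the difference was 0.45 ± 0.11 (adjusted p = 0.019), lost without input 1 (0.49, adjusted p = 0.0521), input 3 (0.40, adjusted p = 0.0852) or Flag-IP 1 (0.41, adjusted p = 0.0694).

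RARS2 and LARS2, the arginine and leucine enzymes, were also called. RARS2 had 2.29 and 2.13 TPM in Flag-IP, against 0.54 and 0.49 TPM in input. LARS2 had 3.21 and 2.78 TPM in Flag-IP, against 0.77 and 0.91 TPM in input. Their replicates were close and the groups well apart, at ratios of 4.29 and 3.57, the first being the highest of the family. The RARS2 difference was 0.43 ± 0.11 (adjusted p = 0.025), lost without input 3 (0.36, adjusted p = 0.1), Flag-IP 1 (0.47, adjusted p = 0.0552) or Flag-IP 3 (0.36, adjusted p = 0.0941). The LARS2 difference was 0.35 ± 0.10 (adjusted p = 0.033), and it was lost whichever library was left out, with adjusted p-values from 0.0771 to 0.115, and after removal of the length trend (0.17, adjusted p = 0.217). Under quantile scaling neither gene passed, at 0.27 for RARS2 and 0.26 for LARS2. Both genes entered the test only through their Flag-IP level, and LARS2 contains the antisense gene LARS2-AS1.

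IARS2 and CARS2 were the most abundant mitochondrial members. IARS2, the isoleucine enzyme, had 10.08 and 8.47 TPM in Flag-IP, against 4.17 and 4.56 TPM in input. CARS2, the cysteine enzyme, had 9.45 and 8.15 TPM in Flag-IP, against 3.29 and 3.62 TPM in input. Both were separated between groups but stayed near the typical gene, at ratios of 2.12 and 2.55 and median-ratio differences of -0.16 and 0.07. SARS2 had 1.92 and 1.97 TPM in Flag-IP, against 0.92 and 1.12 TPM in input, and NARS2 had 1.81 and 1.16 TPM in Flag-IP, against 0.60 and 0.57 TPM in input. Like IARS2 these serine and asparagine enzymes gave the smallest differences among the tested mitochondrial genes, -0.19 and 0.02, and none passed. HARS2 and TARS2 had 0.27 and 0.34, with adjusted p-values of 0.079 and 0.091.

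The untested mitochondrial genes were at or below 1.28 TPM in every library. FARS2, the phenylalanine enzyme, had 1.01 and 0.93 TPM in Flag-IP, against 0.24 and 0.23 TPM in input, a ratio of 4.13. YARS2, the tyrosine enzyme, had 0.74 and 0.83 TPM in Flag-IP, against 0.32 and 0.18 TPM in input. These were apart between groups, as were EARS2, MARS2 and PARS2, whose ratios were 1.99, 2.21 and 1.63. At such levels no read count is known, and these ratios carry no error.

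For 16 pairs of a cytosolic and a mitochondrial enzyme for the same amino acid, the ratio was larger for the mitochondrial gene in 10 and for the cytosolic gene in 6; FARS2 and EPRS each entered 2 pairs. No pair shared a stretch of 31 bases between transcripts, the length searched. Within a library, the quotient of cytosolic over mitochondrial TPM was lower in Flag-IP without overlap in 7 pairs. It was higher without overlap in 2 and overlapped in the other 7. Both FARS2 pairs were among the lower ones. No share over other gene pairs was computed, and with 2 libraries per group such a separation is often met by order alone. The counts are therefore no result about the compartments. The higher pairs were IARS with IARS2, at 2.67 and 2.32 in Flag-IP against 1.54 and 1.47 in input, and EPRS with PARS2, at 60.5 and 31.7 in Flag-IP against 30.1 and 30.8 in input. In the isoleucine pair the cytosolic transcript thus gained on its mitochondrial counterpart by more than the spread between libraries. The opposite held for FARSA with FARS2, whose quotients were 9.96 and 10.6 in Flag-IP against 17.8 and 26.2 in input. For the histidine pair, HARS with HARS2, the quotients were 1.14 and 1.53 in Flag-IP against 2.43 and 1.83 in input; these genes lie head to head and overlap by 437 bases on opposite strands, so reads there cannot be told apart without strand.

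**Figure D3:**
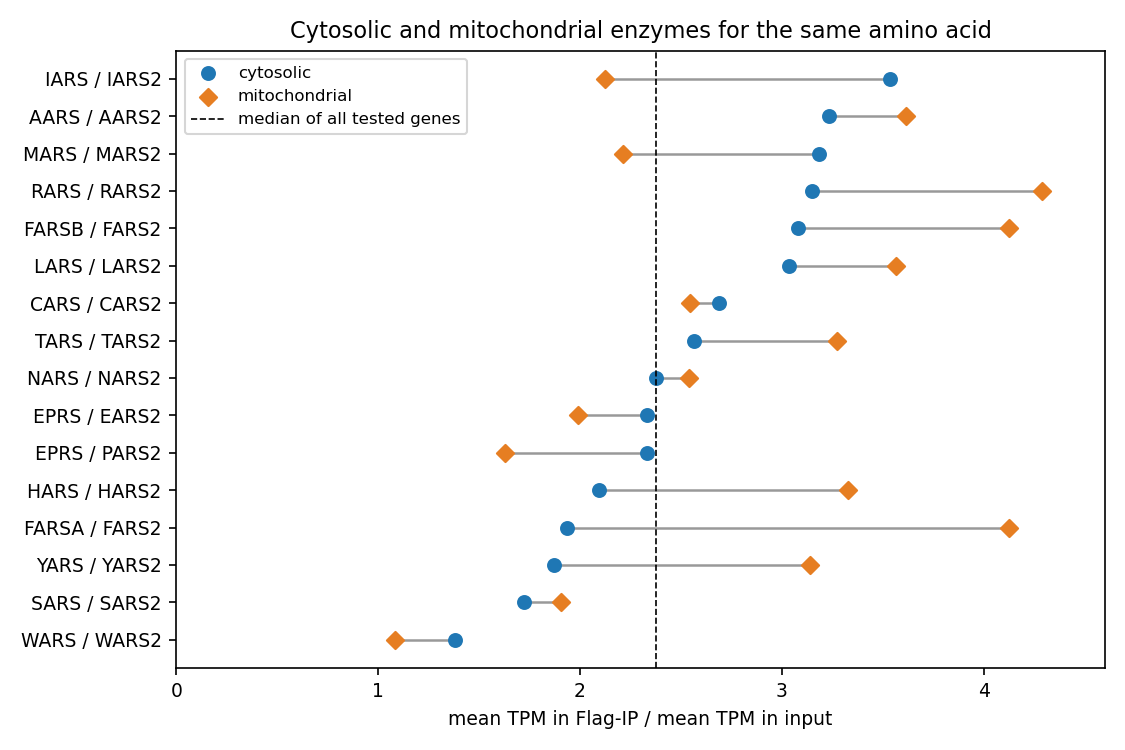
Ratio of mean TPM in Flag-IP to mean TPM in input for the cytosolic (circle) and mitochondrial (diamond) enzyme of each of 16 amino acid pairs, ordered by the cytosolic ratio, with the median of all tested genes (2.38) dashed. The diamond lies right of the circle in 10 pairs, and the 4 pairs with the lowest cytosolic ratios (WARS, SARS, YARS and FARSA) have mitochondrial ratios from 1.08 to 4.13.

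Transcript features were set beside the ratios as a description. Across 5963 tested protein-coding genes, Spearman's rho of the ratio with transcript length (the longest in the annotation) was 0.47, and with its number of exons 0.57. With the mean input TPM it was -0.54. Input is the denominator of the ratio, and the filter kept low-input genes only where Flag-IP was high. A negative value is therefore partly built in, and no trend with abundance is read from it. For length and exons the values were 0.34 and 0.48 among the cytosolic members (n = 20), and -0.21 and 0.40 among the mitochondrial members (n = 15). With input TPM they were -0.22 for the cytosolic and 0.02 for the mitochondrial members. These genes share the same 4 libraries, so the points are not independent. The cytosolic transcripts had a median of 17 exons and the mitochondrial ones of 14, beside 10 over all tested genes. QARS, with 24 exons in a longest transcript of 2827 bases, had a low ratio in spite of its exon number, and IARS, with 34 exons in 4656 bases, the highest of the cytosolic genes. GGAC, the core of the DRACH motif in which m6A is placed, occurred at a median of 4.27 per kb in cytosolic and 5.48 per kb in mitochondrial transcripts, beside 3.84 over all tested genes. Its density had a rho with the ratio of -0.35 for the cytosolic and 0.48 for the mitochondrial members, and of -0.03 over tested protein-coding genes. The 2 groups of members thus went opposite ways, and a match to these letters is no methylated site.

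Because several cytosolic synthetase genes are known ATF4 targets, promoters were searched for TGATGNAA, the core of the C/EBP-ATF response element, on both strands. RefSeq windows of GRCh38.p14, from 250 bases before to 50 after the start site, were found for 30 members: 16 cytosolic, of which 7 had the motif, and 14 mitochondrial, of which 1 had it. Some members had more than 1 window: counted by window, 7 of 21 cytosolic and 1 of 18 mitochondrial windows held it. Of all windows searched, 3.62% (1270 of 35116) held it. The 30 bases around each match are shown to compare the element between genes, 5′ to 3′ on the gene's own strand; capitals mark the motif, and TTGCATCA and TTTCATCA are the motif read on the opposite strand.
AARS: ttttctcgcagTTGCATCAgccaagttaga
CARS: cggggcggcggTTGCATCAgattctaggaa
GARS: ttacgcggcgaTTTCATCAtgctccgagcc
IARS: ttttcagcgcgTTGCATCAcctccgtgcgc
MARS: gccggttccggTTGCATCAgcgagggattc
NARS: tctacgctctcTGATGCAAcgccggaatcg
TARS: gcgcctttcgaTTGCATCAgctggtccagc
YARS2: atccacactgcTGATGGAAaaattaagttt

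These stretches lie at chr16:70289675-70289704 on the minus strand for AARS, chr11:3057407-3057436 on the minus strand for CARS and chr7:30594834-30594863 on the plus strand for GARS. Those of IARS and NARS are at chr9:92293692-92293721 and chr18:57621804-57621833 on the minus strand. Those of MARS and TARS are at chr12:57488053-57488082 and chr5:33440956-33440985 on the plus strand, and that of YARS2 is at chr12:32756076-32756105 on the minus strand. Of the 7 cytosolic genes, 6 held the same 8 letters in one orientation or the other, GARS being the exception. The 3 cytosolic members called above the typical gene, IARS, AARS and MARS, were all among them. RARS2 and LARS2, mitochondrial members also called higher, had a window and no match. QARS, WARS and SARS, the members called lower, likewise had a window and no match. None of these calls passed without a filter, and the motif was not tested against them. DARS, LARS, VARS, YARS and AARS2, the last of them called higher, had no window and were not searched. The 7 cytosolic genes with the motif had Flag-IP over input ratios from 2.32 to 3.54 with a median of 2.69. The 9 cytosolic genes with a window and no match had ratios from 1.38 to 3.15 with a median of 1.96. Their median input levels were 5.06 and 5.15 TPM, and the ranges of the ratios overlapped. A match is a description and no shown binding site.

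Other genes of tRNA charging and of the amino acid response did not move as 1 group. Of the multisynthetase complex scaffolds, AIMP1 had 4.32 and 3.51 TPM in Flag-IP, against 1.15 and 1.22 TPM in input (0.31, adjusted p = 0.052), and AIMP2 had 3.81 and 2.42 TPM in Flag-IP, against 0.92 and 1.51 TPM in input (0.06). Neither passed. EEF1E1, the remaining scaffold, had 1.84 and 1.36 TPM in Flag-IP, against 0.03 and 0 TPM in input; its groups were apart, but its mean was too low for it to be tested. Of 10 further enzymes related to charging 2 were tested. DTD1, which removes D-amino acids from tRNA, had 6.24 and 3.73 TPM in Flag-IP, against 3.72 and 4.51 TPM in input; the groups overlapped, and it was lower relative to the typical gene (-0.83, adjusted p = 0.0061) and did not pass on the deposited scale. AARSD1, an editing protein related to the alanine enzyme, did not pass (0.43, adjusted p = 0.086).

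Of 15 genes of tRNA processing, splicing and export, 11 were tested and 1 was higher than the typical gene (9.09%), beside 22.3% of all tested genes. It was XPOT, the exportin of tRNA, with 20.37 and 13.22 TPM in Flag-IP, against 4.77 and 4.80 TPM in input (0.46, adjusted p = 0.041). Its Flag-IP libraries were far above the inputs and apart from each other. C14orf166, a subunit of the tRNA ligase complex, and SSB, the La protein, had -0.10 and -0.55 and did not pass. The median of the list was 0.03.

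Of 20 genes of the amino acid response, 17 were tested, 2 were higher and 6 lower than the typical gene, beside 22.3% and 18.6% of all tested genes, with a median of -0.36. ASNS and CEBPB, a higher and a lower gene, had input means below 1 TPM and entered the test only through their Flag-IP level. ATF4 itself had 17.58 and 15.72 TPM in Flag-IP, against 13.76 and 16.29 TPM in input, so the groups overlapped; it was the lowest of the list (-1.05, adjusted p = 0.0015). SHMT2, the mitochondrial serine hydroxymethyltransferase, was lower with 28.48 and 25.49 TPM in Flag-IP, against 14.21 and 16.85 TPM in input (-0.44, adjusted p = 0.020). SLC3A2, the heavy chain of amino acid transporters, was the highest, with 8.67 and 7.36 TPM in Flag-IP, against 1.17 and 1.66 TPM in input (0.96, adjusted p = 0.0022). The other higher gene, ASNS, which makes asparagine, was named after its values were seen: it had 5.28 and 3.02 TPM in Flag-IP, against 0.67 and 0.62 TPM in input (0.84, adjusted p = 0.0078). The remaining lower genes were MTHFD2, CEBPB, DDIT4 and XBP1, from -0.56 to -0.36. The spread of the amino acid response genes was therefore wider than that of the synthetases, whose differences ran from -0.73 to 0.50, and no test of that difference was made.

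**Figure D4:**
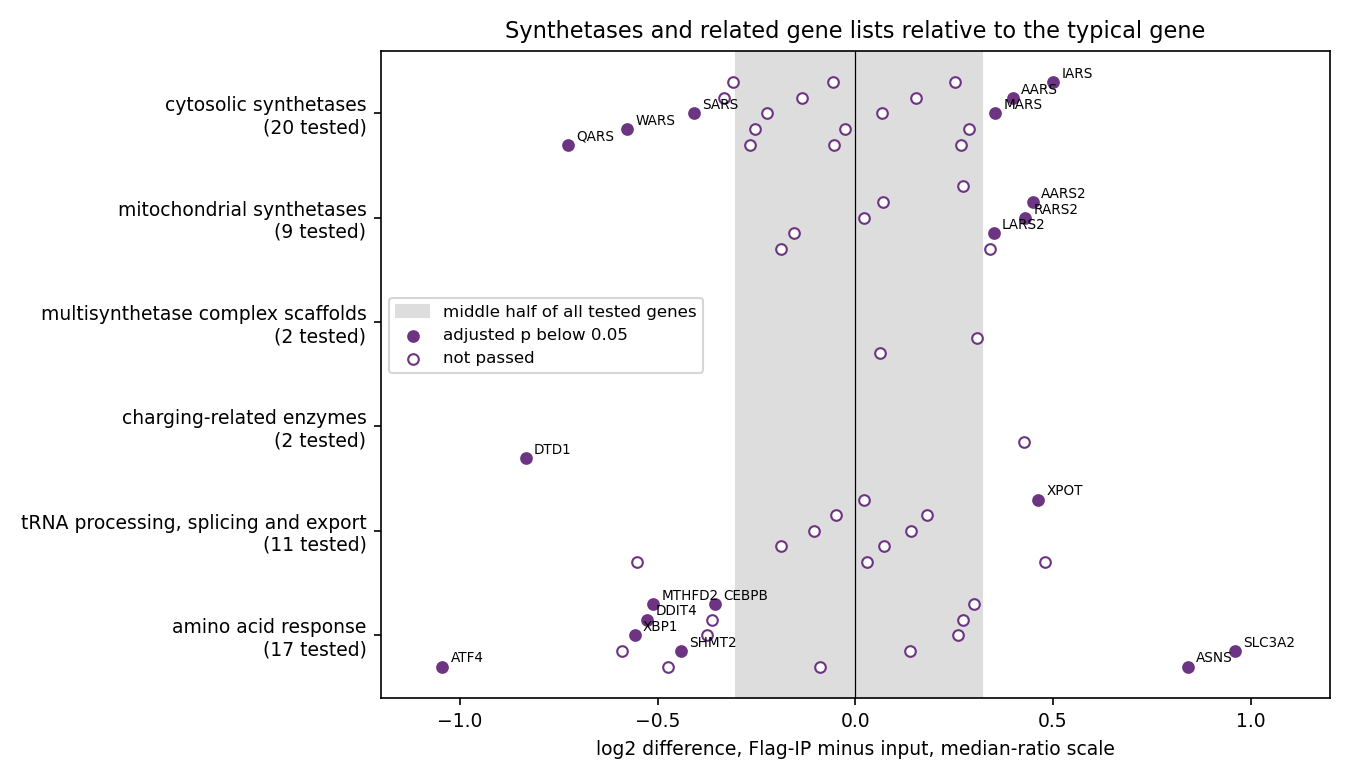
log2 difference, Flag-IP minus input, on the median-ratio scale for the tested synthetases of each compartment and for 4 related gene lists; each point is a gene, filled where the adjusted p was below 0.05 and then labelled, and the grey band spans the quartiles of all tested genes. Synthetases run from -0.73 (QARS) to 0.50 (IARS). ATF4 (-1.05), SLC3A2 (0.96) and ASNS (0.84) lie furthest out, with DTD1 of the charging-related enzymes close behind at -0.83.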

How the data were processed

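The submitters' processing notes name STAR, RSEM and the build GRCh38; no source used here gives versions or the gene annotation. The authors deposited TPM per gene symbol. TPM keeps no depth, so counting intervals are not given. Genes averaging 1 TPM or more over the 4 libraries were fitted with limma 3.58.1 in R 4.3.3 (lmFit, eBayes with trend) on log2(TPM + 1), Flag-IP minus input, two-sided, at a Benjamini-Hochberg adjusted p below 0.05 over all tested genes. This was done as deposited and after median-ratio scaling, in which each library is divided by its median ratio to the geometric mean of genes above 0 throughout. The prior degrees of freedom were infinite and 4.02, beside 2 residual ones. Scripts were tested on simulated data. Coordinates, transcripts and exons came from GENCODE 29 by symbol (23759 matched). Alternatives covered scaling, filter, pseudocount, trend, length, threshold, replicate block and each library left out. Values per library are given for the 3 members per compartment with the highest input mean and with the highest and lowest differences, for called members and for those beside the threshold. Members and lists were chosen with earlier results of these data known. No protein comparison was made.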

Additional observations from a re-analysis of the deposited data

How the results depend on the processing

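On the deposited scale, the 28 members higher became 5 with 2 lower under quantile scaling (1243 and 1219 of all 6487 genes), 11 with 2 lower after rescaling without structural RNAs (2037 and 656 of all genes), 8 without a filter (2342 of 26830 genes) and 18, all that were left, with a filter at a mean of 5 TPM (1272 of 1539 genes). On the median-ratio scale, the 6 higher and 3 lower became 11 higher after rescaling without structural RNAs, 0 and 0 without a filter (26830 genes tested, 77 higher and 20 lower in all), 1 lower at the 5 TPM filter, and 10 and 6 at an adjusted p below 0.1. With 1 library left out, a group holds only 1 library, so no count of members called is given for those fits. Relative to the median of all tested genes, the cytosolic median was -0.04 (log2) and turned to 0.18 under quantile scaling, 0.023 without structural RNAs and 0.17 at the 5 TPM filter, with -0.10 to 0.023 over libraries left out, positive without Flag-IP 3. The mitochondrial median, over 9 members of which 4 passed the filter only through Flag-IP, was 0.28, and was 0.22 under quantile scaling, 0.034 without a filter, 0.16 at 5 TPM, 0.46 with a pseudocount of 0.1 and 0.14 to 0.35 over libraries left out. Cytosolic minus mitochondrial was -0.33. It was -0.043 under quantile scaling, -0.13 without a filter and -0.50 with a pseudocount of 0.1. At 5 TPM, where CARS2 and IARS2 are the only mitochondrial members left, it was 0.0070. Over libraries left out it ran from -0.46 to -0.17. A filter on the mean over all libraries keeps low-input members only where their Flag-IP level is high. No gap between compartments is therefore read from these values. Without a filter the reference was the median of all 26830 genes, most of them below 1 TPM. The cause of these shifts was not tested. Same-numbered libraries did not deviate together (r = -0.17 deposited and -0.19 on the median-ratio scale) and nothing in the labels pairs them. On the deposited scale a replicate block gave 26 higher, beside 4789 of all 6487 genes. On the median-ratio scale it gave 4 higher and 3 lower, beside 1286 and 1055 of all genes. MARS (limma adjusted p = 0.0776) and LARS2 (0.0564) no longer passed. A crossed replicate block, added after seeing the data, gave 29 higher on the deposited scale (5908 of all genes). On the median-ratio scale it gave 5 higher and 3 lower (1409 and 1275 of all genes), LARS2 not passing (0.0509). No called member changed sign on the median-ratio scale, and with a pseudocount of 0.1 all 29 stayed on their side of the threshold. Depth is unknown, so nothing about members below 1 TPM can be bounded.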
